A study of Mus musculus with 30 samples.

Results

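Wnt feedback and target genes are genes that β-catenin switches on in many tissues. Here they are Axin2, Lef1, Tcf7, Sp5, Nkd1, Dkk1, Ccnd1 and Lgr5, followed across 30 arrays of mouse embryonic stem cells (ESCs). The members are every array probe whose gene symbol is one of these 8 names, which gives 12 of 25697 probes and 8 of 18097 gene symbols. When a Wnt ligand binds its Frizzled and LRP receptors, β-catenin escapes degradation, enters the nucleus and binds factors of the TCF/LEF family on target genes. Several targets feed back on the pathway, since their products lower Wnt signaling. In ESCs Wnt signaling takes part both in self-renewal and in the first steps toward mesoderm.

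All cells came from Ainv15, an ESC line that expresses the reverse tetracycline transactivator (rtTA). Each rescue clone carries an shRNA against 1 endogenous mRNA. It also carries an shRNA-resistant form of the same mRNA, which is made only while doxycycline (Dox, 1 μg/ml) is present. The clones were Bub1b_R (a kinase of the spindle checkpoint), Chek1_R (a DNA damage checkpoint kinase), Ppm1g_R (a protein phosphatase), Ppp2r1b_R (a scaffold subunit of protein phosphatase 2A) and Control_R, which the study also calls Ctrl_R. Cells of Control_R carry the same system, and every clone was grown with LIF and without feeder cells, either with Dox or for 5 days without it. Each of the 10 conditions had 3 arrays. By the methods 3 clones were made for each gene and experiments were repeated, but the sources used here do not say which clone or culture each array came from, so p-values measure the spread between arrays, which may be technical.

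A level is the log2 of the normalized intensity, and a change is a difference of such levels. A probe was called where its adjusted p in the limma fit was under 0.05 and the difference was at least 1.5-fold. A probe is detected on an array where its detection p-value, which compares it with negative control probes, is under 0.05. Precision is limited by how few arrays each condition had. In bulk RNA a change in the share of cells that express a gene cannot be told apart from a change in its RNA per cell. Levels of different probes are not compared.

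The arrays fell in 2 sets by signal. For Bub1b_R and Control_R (12 arrays) detection began at a signal of 12.9 to 20.9, and for the other 3 clones (18 arrays) at 27.8 to 58.1. Each comparison with and without Dox lies within a set. A difference of Chek1_R, Ppm1g_R or Ppp2r1b_R from Control_R crosses the sets, so clone and set cannot be told apart there. The Control_R arrays also have older records than those of the 4 other clones, and the study used public arrays beside its own, so a difference of any clone from Control_R, that of Bub1b_R included, cannot be told apart from one between deposits. The targeted mRNA fell on Dox withdrawal in Ppm1g_R, by 1.25 on the log2 scale. Chek1 went against its label, being detected on 0 of 3 arrays with Dox and on 3 of 3 without, at least 1.35-fold higher. The Bub1b probe (-0.14) and the Ppp2r1b probe (0.20) were not called in their own clones. Against Control_R, Bub1b was called lower in Bub1b_R without Dox (-0.67) and with it (-0.70), Chek1 lower in Chek1_R without Dox (-1.07) and at least 3.02-fold lower with it, Ppm1g lower in Ppm1g_R without Dox (-1.74) and Ppp2r1b lower in Ppp2r1b_R with Dox (-0.61) but not without (-0.25). By the methods the rescue copies of Bub1b and Chek1 lack the site of the shRNA, and where these probes lie in the mRNAs is not given in the sources used here. Directions for the arrays labelled Chek1_R therefore rest on the label, and Chek1_R stands below for the arrays so labelled. In them, as in each of the other clones, the summed level of primitive streak markers was higher and that of ESC markers lower on the arrays labelled without Dox (values with the markers at the end). The streak list holds Wnt3 and T, whose changes in the same comparison are reported below. These sums are therefore no check of the label, which was not tested.

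Of the 12 member probes, 10 probes of 7 genes passed the detection filter. Axin2, Sp5, both Tcf7 probes and all 3 Ccnd1 probes were detected on 30 of 30 arrays. A Lef1 probe (ILMN_2648475) was detected on 13, Dkk1 on 8 and Nkd1 on 4. The other Lef1 probe (ILMN_1239469) and the Lgr5 probe were detected on 0 of 30 arrays, with intensities of -22.5 to 12.7 and -21.6 to 8.7, and were not tested. Lgr5 encodes a receptor for R-spondins and marks stem cells of the gut.

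Sp5 and Axin2 rose when Dox was withdrawn, and Sp5 was called in all 4 clones with a targeted gene, though in Ppm1g_R not with median scaling. Axin2 was called in Bub1b_R, Chek1_R and Ppm1g_R, and Lef1 in Bub1b_R and Chek1_R. The Axin2 call in Ppm1g_R was just past the fold limit and was lost in 6 of 17 alternatives. In Ppm1g_R the 3 Ccnd1 probes rose as well. No member probe was called in Control_R, though Sp5 rose there by 0.44 on the log2 scale, under the fold limit. With the change in Control_R subtracted, Sp5 was called in Bub1b_R and Chek1_R but not in Ppm1g_R (0.22) or Ppp2r1b_R (0.31). The largest change was that of Sp5 in the arrays labelled Chek1_R, 8.01-fold.

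Sp5, a zinc finger transcription factor of the Sp family and a direct target of β-catenin, is one of the 6 members with a promoter window in RefSeq (GRCm38.p6, 250 bases before to 50 after the start, 10 windows in all). The TCF/LEF letters CTTTGAT or CTTTGAA, sought on both strands, stood in 2 of these 10 windows, and either stood in 8.65% of all 32851 windows. The matches were in Sp5, 104 bases before the start at chr2:70474808-70474836 on the plus strand, and in Dkk1, 117 bases before the start at chr19:30549596-30549624 on the minus strand. They are shown 5′ to 3′ on the strand of the gene because Sp5 carried the largest change and Dkk1 the only other match, with the searched letters in capitals.
Sp5: ggcaaggccccCTTTGATcaggaaaatcc
Dkk1: tcctcccaaagCTTTGAAatcccatcccg
The windows of Axin2, Lef1, Tcf7 and Nkd1 did not hold these letters. A match describes the sequence and does not show that a factor binds there.

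In Bub1b_R the Sp5 levels were 10.37, 10.33 and 10.45 with Dox and 11.80, 11.95 and 11.79 without it. In the arrays labelled Chek1_R they were 9.29, 9.24 and 9.56 with Dox and 12.30, 12.42 and 12.38 without. All arrays without Dox lay above all arrays with Dox in both clones. The change was 1.47 ± 0.10 (log2, SE, n = 3 against 3, 95% confidence interval 1.27 to 1.66), or 2.76-fold, in Bub1b_R and 3.0 ± 0.10 (2.80 to 3.2) in Chek1_R, with limma adjusted p of 4.81e-11 and 1.24e-17. Arrays can separate at a probe that was not called too. The Bub1b probe in Bub1b_R did so on 9 of 9 array pairs (-0.14, limma adjusted p = 0.217). How many of all tested probes separate was not counted, so separation of arrays is only a description here.

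In Ppm1g_R the Sp5 levels were 11.15, 11.04 and 11.10 with Dox and 11.78, 11.78 and 11.72 without. In Ppp2r1b_R they were 10.58, 10.74 and 10.74 with Dox and 11.47, 11.36 and 11.49 without. These groups did not overlap either, but the steps were smaller, 0.66 ± 0.10 (1.58-fold, adjusted p = 1.51e-05) and 0.76 ± 0.10 (1.69-fold, adjusted p = 2.84e-06). With median scaling in place of quantile normalization the Ppm1g_R value was 0.53, under the fold limit. In Control_R the levels were 7.68, 7.31 and 7.59 with Dox and 8.09, 7.75 and 8.08 without, which is 0.44 ± 0.10 (95% confidence interval 0.25 to 0.64, limma adjusted p = 0.00466). The Control_R difference had the same sign on 9 of 9 array pairs but was 1.36-fold and under the fold limit.

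**Figure D1:**
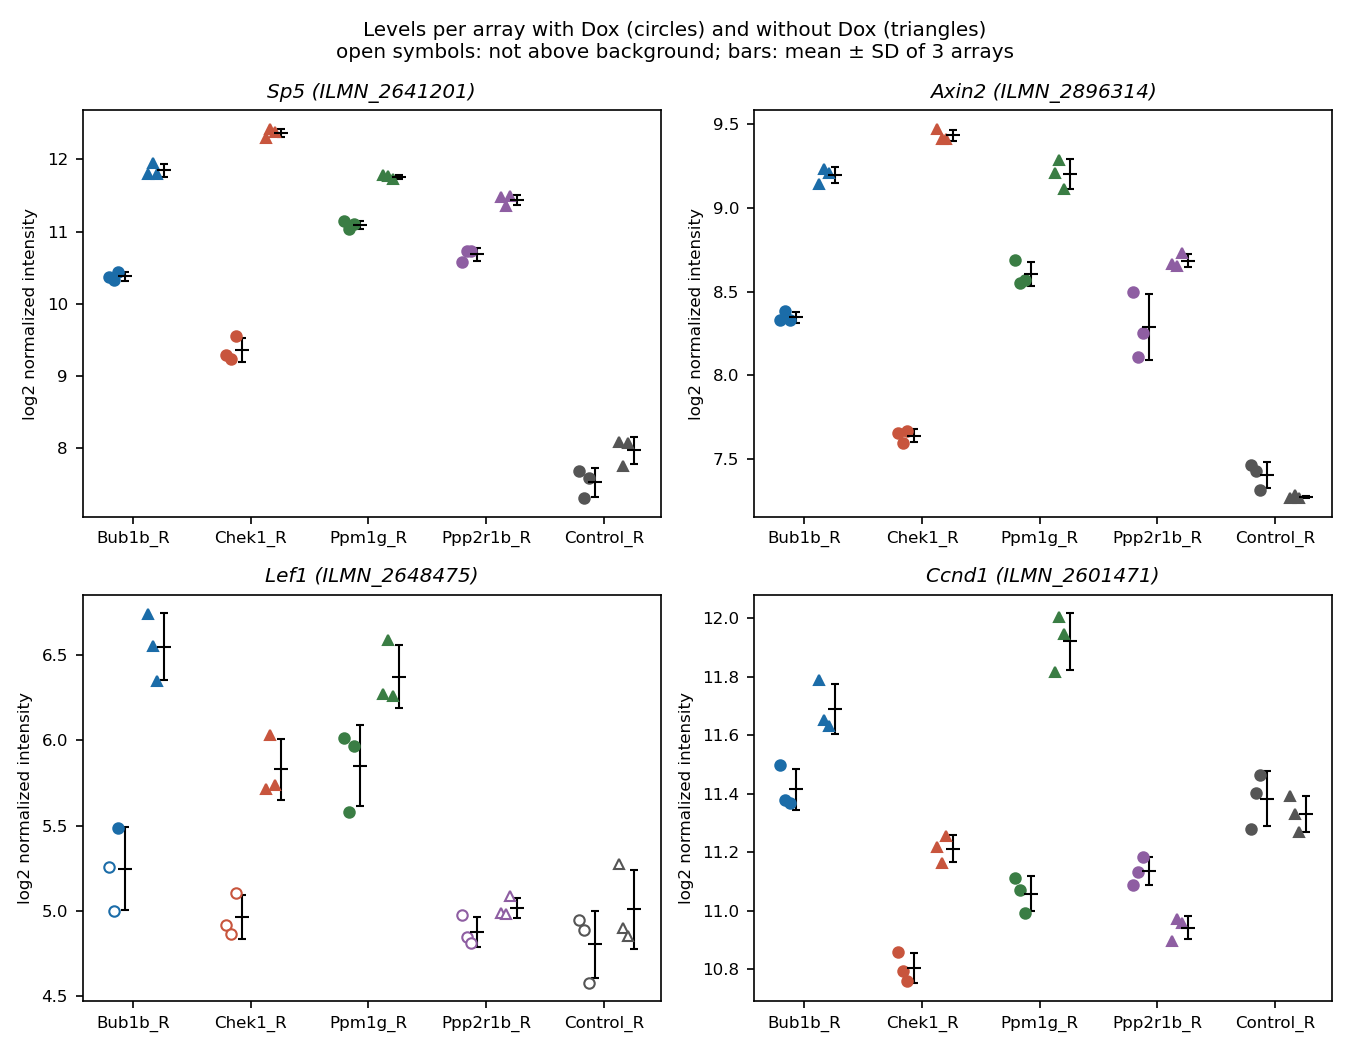
Level (log2 normalized intensity) of Sp5, Axin2, Lef1 and Ccnd1 on each of the 30 arrays, by clone, with Dox as circles and without Dox as triangles. Open symbols are arrays on which the probe was not detected, and bars are the mean ± SD of 3 arrays. Sp5 ran from 7.31 in Control_R to 12.42 in Chek1_R without Dox.

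Axin2 encodes a scaffold of the complex that degrades β-catenin and is a widely used readout of Wnt signaling. In Bub1b_R its levels were 8.33, 8.39 and 8.33 with Dox and 9.14, 9.23 and 9.21 without. In Chek1_R they were 7.66, 7.60 and 7.67 with Dox and 9.47, 9.41 and 9.41 without. Axin2 rose by 0.85 ± 0.07 (1.80-fold, adjusted p = 4.12e-09) in the former and by 1.79 ± 0.07 (3.46-fold, adjusted p = 1.16e-15) in the latter.

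In Ppm1g_R the Axin2 levels were 8.69, 8.55 and 8.57 with Dox and 9.21, 9.29 and 9.11 without, a rise of 0.60 ± 0.07 (1.51-fold, adjusted p = 1.28e-06). That rise stood just past the fold limit, and leaving out 1 array, Ppm1g_R with Dox replicate 2 or 3 or without Dox replicate 2, brought it to 0.56 to 0.58 and under the limit. Over all 17 alternatives the value was 0.515 to 0.645, and the call was lost in 6. In Ppp2r1b_R the levels were 8.50, 8.11 and 8.25 with Dox and 8.67, 8.66 and 8.73 without. The groups did not overlap and the adjusted p was 0.000232, but 0.40 ± 0.07 (1.32-fold) was under the fold limit. In Control_R the change was -0.13 ± 0.07 (95% confidence interval -0.28 to 0.02, limma adjusted p = 0.301).

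Lef1 encodes a TCF/LEF factor that is itself a target of the pathway, and its transcripts were low on these arrays. In Bub1b_R the levels of ILMN_2648475 were 5.26, 5.00 and 5.48 with Dox, where it was detected on 1 of 3 arrays, and 6.74, 6.56 and 6.35 without, where it was detected on 3 of 3. The rise was 1.30 ± 0.14 (2.46-fold, adjusted p = 2.62e-07). Without background correction it was 2.27 with an adjusted p of 0.0596 in limma, and the call was lost.

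In the arrays labelled Chek1_R, Lef1 was detected on 0 of 3 arrays with Dox (4.92, 4.86 and 5.11) and on 3 of 3 without (5.72, 6.03 and 5.74). Its level without Dox exceeded that with Dox at least 1.19-fold (adjusted p = 4.18e-05), a bound taken against the lowest signal of detected probes. In Ppm1g_R it was detected in both conditions, at 6.01, 5.58 and 5.97 with Dox and 6.27, 6.59 and 6.26 without, and the change of 0.52 ± 0.14 (adjusted p = 0.00989) was under the fold limit. In Ppp2r1b_R and Control_R it was not detected on any of the 12 arrays, so no fold is given.

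Ccnd1 encodes cyclin D1, which drives entry into the cell cycle, and on withdrawal it was called in Ppm1g_R only. In Ppm1g_R the levels of its probe ILMN_2601471 were 11.11, 11.07 and 10.99 with Dox and 11.81, 12.00 and 11.95 without. The changes of its 3 probes were 0.86 ± 0.06, 0.79 ± 0.05 and 0.76 ± 0.09, all called, with adjusted p between 1.2e-10 and 1.68e-06. The 3 probes thus gave 1.69-fold to 1.82-fold.

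In the other clones Ccnd1 was under the fold limit at every probe. The nearest was ILMN_1221503 in Chek1_R (0.57), which was called in 4 of 17 alternatives. The changes of the 3 probes were 0.26 to 0.45 in Bub1b_R and 0.41 to 0.57 in Chek1_R, with adjusted p between 8.2e-07 and 0.00216. In Ppp2r1b_R the values were -0.19, -0.32 and -0.02, of which the first and second had an adjusted p of 0.0271 and 6.55e-05. In Control_R they were -0.05, -0.15 and -0.01, with adjusted p of 0.0784 or more.

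Tcf7 encodes TCF1, another TCF/LEF factor, and it was not called on Dox withdrawal in any clone. In Ppm1g_R its probe ILMN_2717975 stood at 7.99, 7.92 and 8.05 with Dox and 7.52, 7.35 and 7.43 without. The groups did not overlap, and the change of -0.55 ± 0.15 (adjusted p = 0.00859) was under the fold limit, as was that of ILMN_1242308, -0.30 ± 0.09 (adjusted p = 0.0175). In the other 4 clones the changes of both probes were between -0.19 and 0.16, with adjusted p of 0.137 or more.

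Dkk1, a secreted antagonist of the LRP coreceptors, and Nkd1, which acts on Dishevelled, were near background in all conditions. Dkk1 was detected on at most 2 of 3 arrays of any condition and Nkd1 on at most 1, with intensities of -4.1 to 67 and 1.8 to 25.9. Neither was called on Dox withdrawal in any clone.

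**Figure D2:**
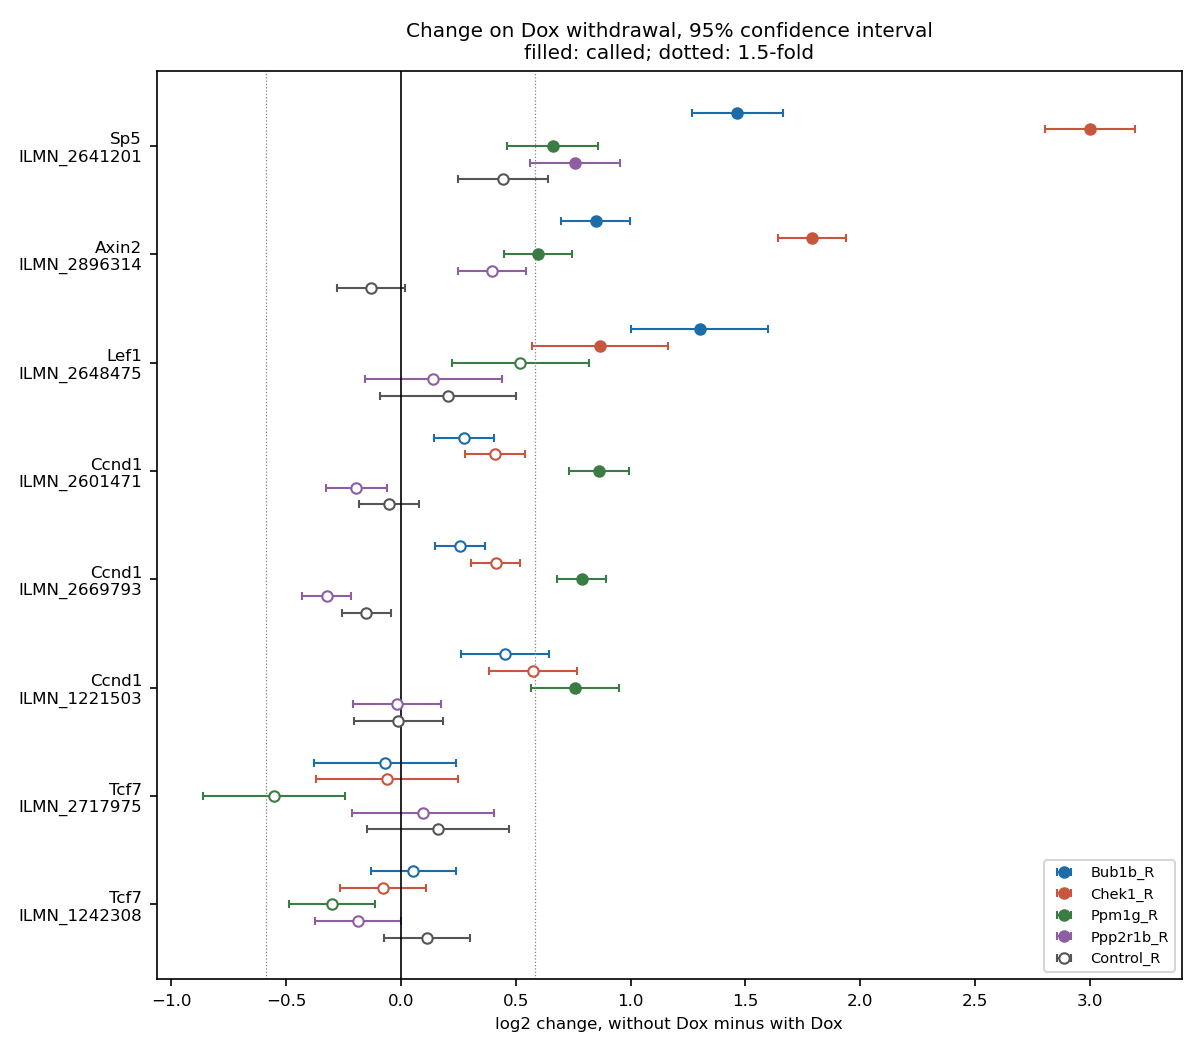
Change on Dox withdrawal (log2, without Dox minus with Dox) of the 8 member probes detected on at least 13 arrays, by clone, with 95% confidence intervals from the limma fit of 3 against 3 arrays. Filled points were called and dotted lines mark 1.5-fold, and Lef1 in Ppp2r1b_R and Control_R was not detected. Sp5 and Axin2 lie farthest right in Chek1_R (3.0 and 1.79), Ccnd1 in Ppm1g_R (0.86, 0.79 and 0.76).

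Counted over the 10 tested member probes, withdrawal gave 3 calls in Bub1b_R, where 5.6% of all 15151 tested probes were called, and 3 in Chek1_R, where 9.27% were. It gave 5 calls in Ppm1g_R against 4.37% of all probes, and 1 in Ppp2r1b_R against 4.82%. Ccnd1 enters these counts and the medians below with 3 probes, all called in Ppm1g_R. By gene, 3 of the 7 tested were called in each of Bub1b_R, Chek1_R and Ppm1g_R, and 1 in Ppp2r1b_R. In Control_R 0 member probes and 1.1% of all probes were called, with 2 member probes at an unadjusted p under 0.05 in limma and 0 called by the methods' t-test. All the called member probes rose. The median change of the member probes was 0.27, 0.43, 0.56, 0.04 and 0.00 in Bub1b_R, Chek1_R, Ppm1g_R, Ppp2r1b_R and Control_R, beside medians over all tested probes between -0.02 and 0.00.

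The next comparison took the change in each clone minus the change in Control_R, which sets aside what withdrawal does in cells with no targeted gene. All 4 of these comparisons share the 6 arrays of Control_R. Axin2 rose more than in Control_R in Bub1b_R (0.98 ± 0.10, adjusted p = 6.08e-07), Chek1_R (1.92 ± 0.10, 8.22e-13) and Ppm1g_R (0.73 ± 0.10, 3.3e-05). Sp5 did so in Bub1b_R (1.02 ± 0.13, adjusted p = 1.63e-05) and Chek1_R (2.56 ± 0.13, 8.18e-13). For Ppm1g_R and Ppp2r1b_R the Sp5 values were 0.22 (95% confidence interval -0.06 to 0.50) and 0.31 (0.04 to 0.59) and were not called.

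Lef1 exceeded Control_R in Bub1b_R, by 1.10 ± 0.20 (adjusted p = 0.000752), with the probe detected on 0 of 6 arrays of Control_R and on 1 of 3 of Bub1b_R with Dox. Without background correction that value was 1.48 with a limma adjusted p of 0.498, and the call was lost. Lef1 was called higher in Chek1_R too (adjusted p = 0.0242), but it was detected on 0 of 3 arrays in 3 of the 4 conditions that enter, so no size is given, and the call was lost when any of 7 arrays was left out and under 3 other settings. In Ppm1g_R the 3 Ccnd1 probes exceeded Control_R by 0.91, 0.94 and 0.77, with adjusted p between 1.7e-08 and 0.000305. In Chek1_R 1 Ccnd1 probe (ILMN_1221503) passed at 0.59 ± 0.13 (adjusted p = 0.00239), just at the fold limit, with the other 2 at 0.46 and 0.56.

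Tcf7 was the only member called lower in this comparison. Its probe ILMN_2717975 was at -0.71 ± 0.21 in Ppm1g_R (adjusted p = 0.0268), a call that leaving out 1 of several arrays ended, for example Control_R with Dox replicate 1 (-0.55, adjusted p = 0.0918). The second Tcf7 probe gave -0.41 ± 0.13 (adjusted p = 0.0337) and was under the fold limit.

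Relative to Control_R, 3 of 10 member probes were called in Bub1b_R (5.15% of all tested probes), 4 in Chek1_R (8.99%), 5 in Ppm1g_R (5.27%) and 0 in Ppp2r1b_R (3.28%). By gene these were 3, 4, 3 and 0 of the 7 tested. The member medians were 0.37, 0.57, 0.28 and -0.06 in that order, beside medians over all tested probes between -0.02 and -0.01. Leaving out Chek1_R with Dox replicate 1 or Control_R without Dox replicate 2 brought the count for Chek1_R to 2. In Ppp2r1b_R, where 0 were called, the nearest was Axin2 at 0.53 ± 0.10 (adjusted p = 0.00198), 1.44-fold and under the fold limit. At an unadjusted p under 0.05 there were 4 member probes there.

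Whether the 4 clones with a targeted gene differed in their response was tested by an F-test. It passed for 6 of the 10 member probes, which belong to 4 of the 7 tested genes, where 24% of all tested probes passed. These were Sp5 (adjusted p = 1.18e-11), Axin2 (1.44e-09), Lef1 (0.00109) and the 3 Ccnd1 probes (8.03e-10 to 0.000734). The Lef1 result is limited by signal near background. Its probe was detected on 0 arrays of Ppp2r1b_R, 0 of 3 of Chek1_R with Dox and 1 of 3 of Bub1b_R with Dox. Bub1b_R also lies in the array set where detection began at a lower signal. Without Chek1_R, whose targeted mRNA goes against its label, the same 6 probes passed, with adjusted p of 0.000317 for Sp5, 0.0109 for Axin2, 0.00104 for Lef1 and 2.34e-09 to 0.00083 for Ccnd1. The share of all tested probes that passed without Chek1_R was not taken, so this count has no background beside it. Tcf7, Nkd1 and Dkk1 had adjusted p of 0.0976 to 0.985.

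Levels in the clones were also set against Control_R at the same Dox state. Sp5 was called higher in each of the 4 clones without Dox, by 3.88 ± 0.10 in Bub1b_R, 4.39 in Chek1_R, 3.79 in Ppm1g_R and 3.47 in Ppp2r1b_R. It was called higher with Dox too, by 2.85 in Bub1b_R (7.23-fold, adjusted p = 9.07e-17), 1.84 in Chek1_R, 3.57 in Ppm1g_R and 3.16 in Ppp2r1b_R. Thus the clones stood above Control_R in Sp5 with Dox as well as without, and in Bub1b_R the step was 14.7-fold without Dox and 7.23-fold with it.

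Axin2 ran the same way at a smaller scale. Without Dox it stood above Control_R by 1.92 in Bub1b_R, 2.16 in Chek1_R, 1.93 in Ppm1g_R and 1.41 in Ppp2r1b_R, all called. With Dox it stood above by 0.94 in Bub1b_R (1.92-fold, adjusted p = 1.83e-10), 1.20 in Ppm1g_R and 0.88 in Ppp2r1b_R, all called. In Chek1_R with Dox the difference was 0.24 ± 0.07 (adjusted p = 0.00867) and under the fold limit.

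**Figure D3:**
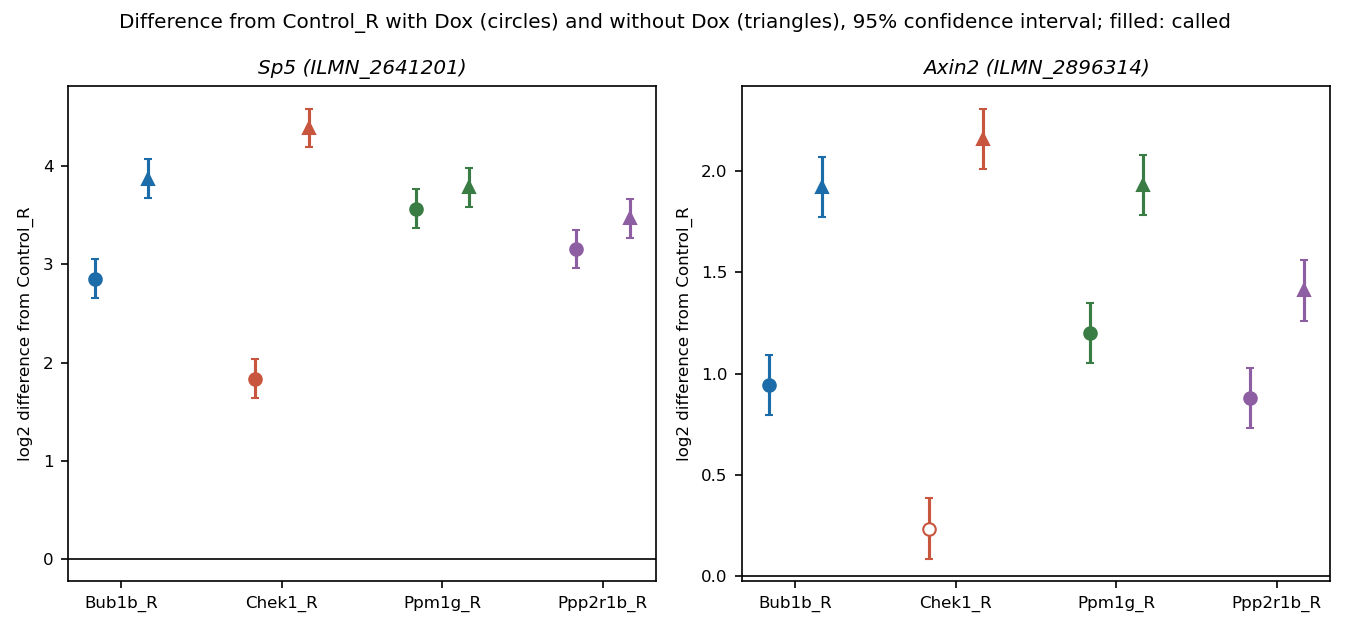
Difference from Control_R (log2) of Sp5 and Axin2 in the 4 clones with a targeted gene, with Dox as circles and without Dox as triangles, with 95% confidence intervals from the limma fit. Filled points were called. The lowest Sp5 difference is that of Chek1_R with Dox (1.84), and the open Axin2 point is the same condition (0.24).

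Ordered by mean level, Sp5 ran from Chek1_R without Dox (12.36) through Bub1b_R (11.85), Ppm1g_R (11.76) and Ppp2r1b_R (11.44) without Dox, then Ppm1g_R (11.10), Ppp2r1b_R (10.69), Bub1b_R (10.38) and Chek1_R (9.36) with Dox, to Control_R without (7.97) and with Dox (7.53). No neighbours in this order overlapped between arrays. For Axin2 the order was Chek1_R (9.43), Ppm1g_R (9.20), Bub1b_R (9.19) and Ppp2r1b_R (8.68) without Dox, then Ppm1g_R (8.60), Bub1b_R (8.35), Ppp2r1b_R (8.29) and Chek1_R (7.64) with Dox, and Control_R with (7.40) and without Dox (7.27). Its neighbours overlapped in 3 places, between Ppm1g_R and Bub1b_R without Dox, between Ppp2r1b_R without and Ppm1g_R with Dox, and between Bub1b_R and Ppp2r1b_R with Dox.

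Lef1 was detected on 0 of 6 arrays of Control_R. Without Dox it was at least 2.21-fold higher in Bub1b_R, at least 1.34-fold in Chek1_R and at least 1.95-fold in Ppm1g_R, all called. With Dox it was called in Ppm1g_R, at least 1.25-fold higher.

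Ccnd1 took both directions against Control_R. Without Dox it was called higher at 1 probe in Bub1b_R (0.68) and at 2 in Ppm1g_R (0.59 and 0.72), and lower at 1 in Ppp2r1b_R (-0.75). With Dox it was called lower at 2 probes in Chek1_R (-0.69 and -0.63) and at 1 in Ppp2r1b_R (-0.74). The 3 probes did not give the same call in any of these comparisons at the settings used. With median scaling ILMN_2601471 and ILMN_2669793 were also called without Dox in Bub1b_R (0.63 and 0.68) and in Ppp2r1b_R (-0.71 and -0.72), in the direction of the third probe. The call at 0.59 in Ppm1g_R was lost in 6 of 17 alternatives and that at -0.63 in Chek1_R in 4 of 17.

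Tcf7 was called higher than Control_R with Dox, at ILMN_2717975 in Ppm1g_R (0.63 ± 0.15, adjusted p = 0.000764) and at ILMN_1242308 in Ppp2r1b_R (0.71 ± 0.09, adjusted p = 3.61e-07). The former call was lost without Control_R with Dox replicate 1 (0.47). Dkk1 was called higher than Control_R without Dox in Chek1_R, Ppm1g_R and Ppp2r1b_R, all across the 2 array sets. It was detected on 1, 0 and 2 of 3 arrays there and on 0 in Control_R, so the bounds are at least 1.06-fold in Chek1_R and 1.29-fold in Ppp2r1b_R, and none is given for Ppm1g_R. These calls were lost in 5, 3 and 2 of 15 alternatives, in the order Chek1_R, Ppm1g_R and Ppp2r1b_R.

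Calls against Control_R were common over the whole array, and the member counts have to be read beside them. Without Dox 4 of 10 member probes were called in Bub1b_R (22.6% of all tested probes), 4 in Chek1_R (28.8%), 6 in Ppm1g_R (33.5%) and 4 in Ppp2r1b_R (33.7%). With Dox 2 were called in Bub1b_R (12.7%), 3 in Chek1_R (17.6%), 4 in Ppm1g_R (29.1%) and 4 in Ppp2r1b_R (28.3%). By gene these were 4, 4, 5 and 4 of the 7 tested without Dox and 2, 2, 4 and 4 with it. The member medians were 0.41, 0.22, 0.64 and 0.15 without Dox and 0.23, 0.09, 0.48 and 0.22 with it, beside medians over all tested probes between -0.04 and 0.00.

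Over the 10 condition means, Axin2 and Sp5 varied together (Pearson r = 0.966), and Axin2 and Lef1 had r = 0.793. Ccnd1 had r = 0.36 with Axin2 and 0.17 with Sp5. The genes most like Axin2 were Wnt3 (r = 0.981), Tapbpl (0.98) and Ube2f (0.976), and those most like Sp5 were Mapre2 (0.994), Irgm (0.99) and Nt5e (0.985). For Lef1 they were Pitpna (0.968), Msx1 (0.96) and Usf1 (0.953), and for Ccnd1 Ctxn1 (0.958), Immt (0.937) and Zfhx2 (0.922). The points share clones, Control_R and the 2 array sets, and these values are descriptions over 10 means of 3 arrays.

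Other genes of the pathway were taken from lists by role, with 95 genes listed, 89 on the array and 63 tested. A gene can pass the detection filter through the condition where it is high. Counts among tested genes therefore favour genes that rose and do not describe a whole list. On withdrawal 14 of the 63 rose and 0 fell in Bub1b_R (5.6% of all tested probes called), 18 rose and 2 fell in Chek1_R (9.27%), 12 rose and 0 fell in Ppm1g_R (4.37%) and 12 rose and 0 fell in Ppp2r1b_R (4.82%). In Control_R 1 rose and 1 fell (1.1%). The medians of the 63 changes were 0.17, 0.05, 0.12, 0.14 and 0.03.

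Of 19 Wnt ligands on the array, 10 passed the detection filter and were tested. Among these, 7 rose in Bub1b_R, 7 in Chek1_R, 6 in Ppm1g_R, 6 in Ppp2r1b_R and 0 in Control_R, where 3 had an unadjusted p under 0.05 in limma. Wnt5a, a ligand that often acts without β-catenin, went up by 1.62 ± 0.12 in Bub1b_R, 3.45 in Chek1_R, 1.34 in Ppm1g_R and 1.33 in Ppp2r1b_R, beside 0.02 in Control_R. Wnt3, a β-catenin ligand needed to form the primitive streak, rose by 1.33 ± 0.15, 2.04 and 0.95 in the first 3 of these clones and had 0.57 (1.48-fold, under the fold limit) in Ppp2r1b_R. Wnt5b rose by 1.69 in Bub1b_R, 1.27 in Ppm1g_R and 1.17 in Ppp2r1b_R (0.99 relative to Control_R, limma adjusted p = 0.0592, not called), and was at least 2.72-fold higher in Chek1_R, where it was detected on 0 of 3 arrays with Dox.

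The other ligands rose in fewer clones. Wnt4 rose in Bub1b_R, Ppm1g_R and Ppp2r1b_R (0.82 to 0.89), Wnt6 in Bub1b_R, Chek1_R and Ppp2r1b_R (0.79 to 1.84) and Wnt8a in Chek1_R, Ppm1g_R and Ppp2r1b_R (0.64 to 1.46). Wnt3a rose in Bub1b_R (0.88) and Ppm1g_R (1.15), and Wnt7a in Chek1_R (0.88) and Ppp2r1b_R (0.87). Wnt10a was at least 1.23-fold higher in Bub1b_R and 1.31-fold in Chek1_R, both from 0 of 3 arrays with Dox. Control_R had 0.32 for Wnt4, 0.35 for Wnt8a and 0.38 for Wnt7a, under the fold limit. Relative to Control_R, Wnt4 had 0.50 to 0.56 (limma adjusted p 0.0873 to 0.115), Wnt7a 0.50 and 0.48 (0.188 and 0.255) and Wnt8a in Ppp2r1b_R 0.29 (0.498), and these were not called.

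Among genes that process ligands, Notum, an enzyme that strips the lipid from Wnts and is itself a feedback inhibitor, rose in all 4 clones, by 0.69 ± 0.13 in Bub1b_R, 1.57 in Chek1_R, 0.93 in Ppm1g_R and 0.71 in Ppp2r1b_R. Its change in Control_R was -0.01. Porcn, which attaches that lipid, rose in Ppm1g_R (0.68). Rspo3, a ligand that keeps Frizzled receptors on the surface, rose by 1.78 ± 0.20 in Bub1b_R, 1.00 in Ppm1g_R and 2.06 in Ppp2r1b_R, was at least 11.2-fold higher in Chek1_R and had 0.03 in Control_R. Rspo1, the other tested gene of that list, was not called.

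Of 11 tested receptors and coreceptors, Fzd10 rose in Bub1b_R (0.76 ± 0.07), Chek1_R (1.40) and Ppp2r1b_R (0.73), and Fzd2 in Chek1_R (0.66). Of 8 tested secreted inhibitors, Sostdc1 rose (0.87) and Dkk3 (-0.63) and Sfrp2 (-0.67) fell, all in Chek1_R. Dkk3 also had -0.55 in Bub1b_R, -0.49 in Ppm1g_R and -0.45 in Control_R, and its value in Chek1_R relative to Control_R was -0.17 (limma adjusted p = 0.304), not called. Sostdc1 and Sfrp2 are outside the rule for named genes and are given because the calls were few. Sfrp1, which binds Wnts, had -0.41 to -0.58 in the 4 clones, under the fold limit. Of 13 cytoplasmic transducers and inhibitors 0 were called in any clone. At an unadjusted p under 0.05 in limma there were 3 to 8 in the 4 clones and 4 in Control_R. At the stricter limit of an adjusted p under 0.05, with no fold limit, 3541 to 4689 of all 15151 tested probes passed in the 4 clones. Csnk1e had -0.26 to -0.35 and Frat2 -0.26 to -0.46 in the 4 clones, beside -0.17 and 0.09 in Control_R. Relative to Control_R, Csnk1e had -0.09 to -0.18 (limma adjusted p 0.218 to 0.611). Frat2 had -0.35 to -0.55 (0.000405 to 0.0276), under the fold limit. Of 9 nuclear factors only Bcl9l was called, in Ppp2r1b_R (0.69), and Tcf7l2 had 0.05 to 0.40 in the 4 clones. Relative to Control_R the changes of Porcn in Ppm1g_R (0.46), Fzd2 in Chek1_R (0.54) and Bcl9l in Ppp2r1b_R (0.47) were under the fold limit. The counts of 0 to 2 of 11 receptors and of 0 to 1 of 9 nuclear factors lie within 1 call of what the share of all probes called would give.

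Other known targets rose beside the members. T, the Brachyury gene of early mesoderm, rose in all 5 clones, by 2.31 ± 0.11 in Bub1b_R, 4.44 in Chek1_R, 1.05 in Ppm1g_R, 1.90 in Ppp2r1b_R and 0.75 in Control_R. Minus the change in Control_R, that in Ppm1g_R was 0.30 (adjusted p = 0.226) and was not called. Ccnd2, a second D-type cyclin, rose in Bub1b_R (0.87), Chek1_R (1.06) and Ppm1g_R (0.93), Tnfrsf19 in Bub1b_R, Chek1_R and Ppp2r1b_R (0.61 to 1.14), and Cd44 in Chek1_R (0.88) and Ppm1g_R (1.07). Cdx1 rose in Chek1_R (0.82) and fell in Control_R (-0.69).

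**Figure D4:**
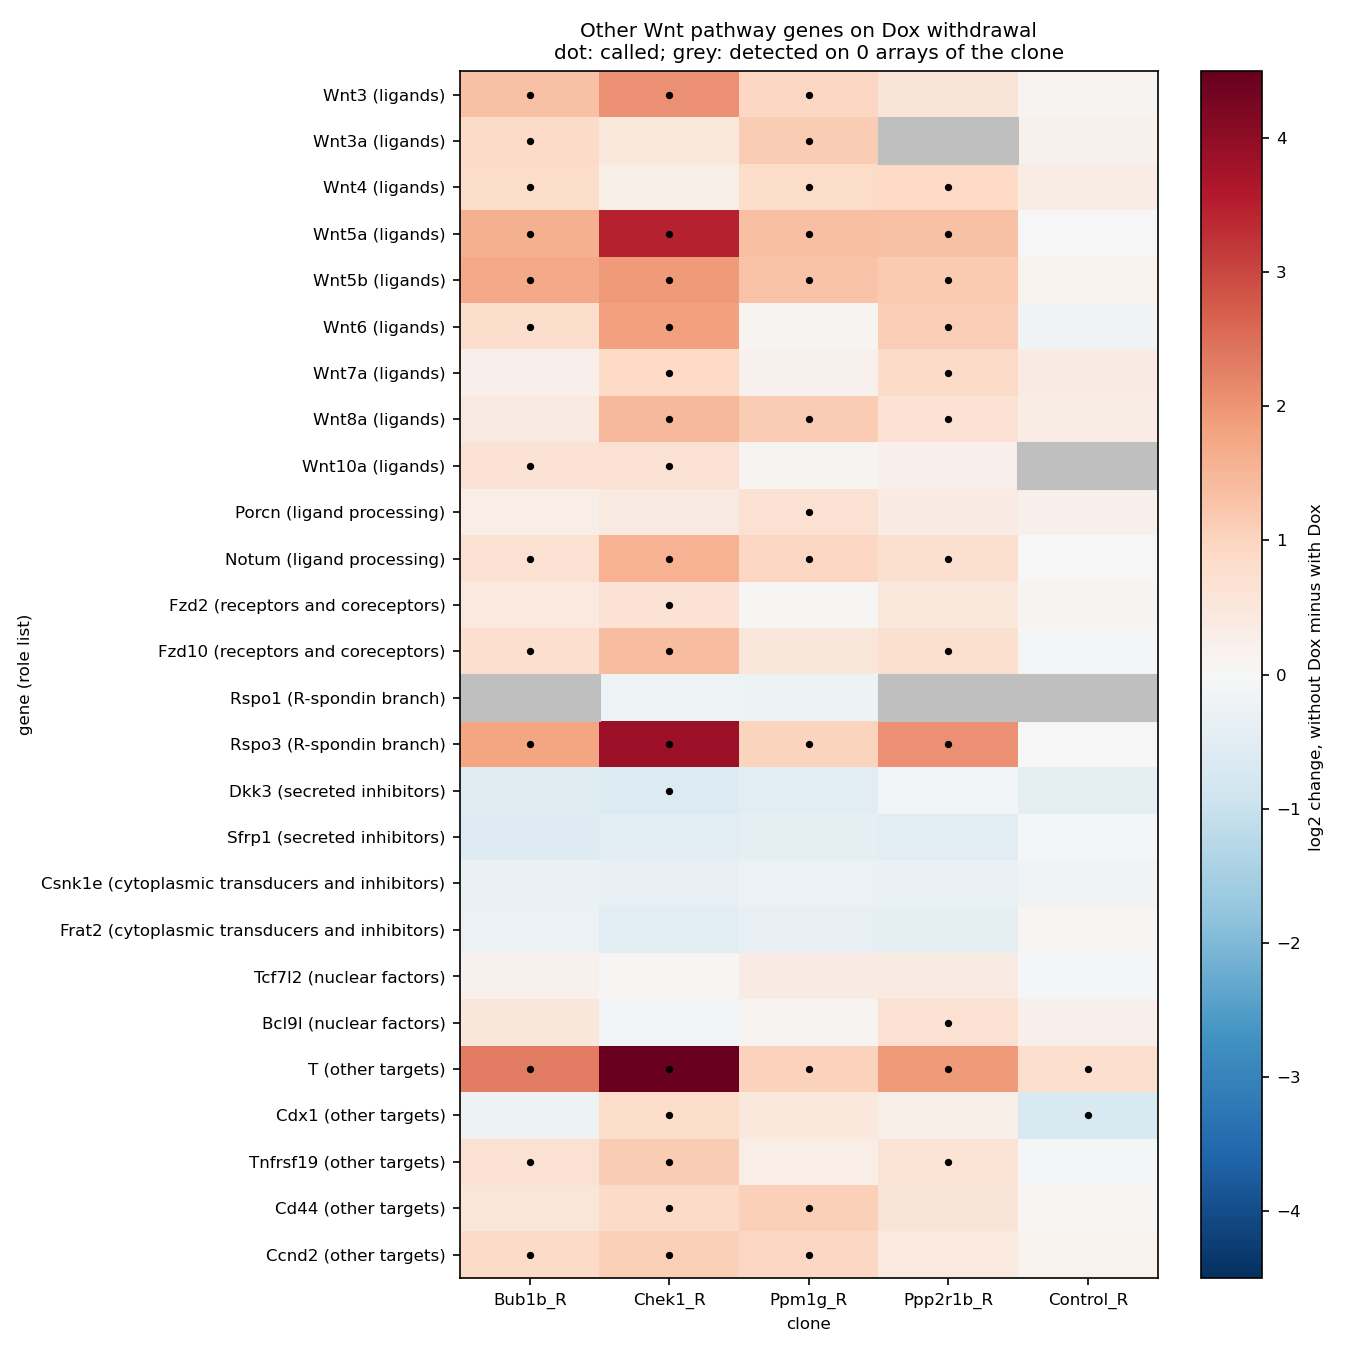
Change on Dox withdrawal (log2, colour scale in units of log2) of 26 named Wnt pathway genes in the 5 clones, grouped by role. Dots mark called changes and grey cells probes detected on 0 arrays of that clone. Wnt5a, Rspo3 and T are darkest in Chek1_R (3.45, 3.85 and 4.44), the Rspo3 value being bounded at 11.2-fold, and the Control_R column has 2 dots (T and Cdx1).

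Markers of other cell states moved with these results. Of 8 markers of the primitive streak, a list that holds Wnt3 and T from above, 8 rose in Bub1b_R, 8 in Chek1_R, 6 in Ppm1g_R, 4 in Ppp2r1b_R and 2 in Control_R. Of all tested probes 5.6%, 9.27%, 4.37%, 4.82% and 1.1% were called in these clones. The marker sums that follow are over the 8. Their summed level (linear normalized intensity, range over arrays) went from 1868 to 1935 with Dox to 7755 to 7817 without in Bub1b_R, and from 422 to 442 to 5770 to 6277 in Chek1_R. It went from 1816 to 1902 to 3476 to 3582 in Ppm1g_R, from 951 to 1022 to 2902 to 3280 in Ppp2r1b_R and from 298 to 346 to 392 to 431 in Control_R. Mixl1, Eomes and Mesp1 were detected on 0 arrays of Ppp2r1b_R and of Control_R with Dox, so the call of Eomes in Ppp2r1b_R carries no fold. The part of these cells in the member changes was not tested.

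The 7 measured ESC markers were detected on all 30 arrays. Their summed level was 26626 to 36776 with Dox and 18059 to 31382 without over the 5 clones, and it was lower without Dox in each of them. Of the 7 tested, 3 fell in Ppp2r1b_R (4.82% of all tested probes called), 1 in Bub1b_R (5.6%), 1 in Chek1_R (9.27%) and 0 in the other 2 clones.

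Of 10 markers of fibroblast feeders 7 were tested, and Col1a2, Postn and Lum were detected on 0 of 30 arrays. Of the 7, 1 rose in Bub1b_R (5.6% of all tested probes called), 4 rose and 1 fell in Chek1_R (9.27%) and 2 rose and 1 fell in Ppm1g_R (4.37%). In Ppp2r1b_R 4 rose (4.82%) and in Control_R 0 were called (1.1%). The summed level was taken over all 10 markers, those not detected included. It was 1030 to 1110 with Dox and 1134 to 1170 without in Bub1b_R, 794 to 856 and 971 to 1090 in Chek1_R, and 679 to 720 and 727 to 795 in Ppm1g_R. It was 877 to 919 and 1127 to 1301 in Ppp2r1b_R, and 1018 to 1088 and 1051 to 1091 in Control_R. The part of feeder cells in the member changes was not tested.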

How the data were processed

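RNA from 5 ESC rescue clones, with Dox and after 5 days without it, was hybridized to Illumina Mouse WG8-V2 BeadChips, 3 arrays per condition. The authors deposited a signal intensity for each of 25697 probes, with the background subtracted but no normalization across arrays, and a detection p-value for each. The submitters' processing notes name lumi. The normalization used in the study is not given in the sources used here. Of the detection p cells, 60 held spreadsheet dates, of which 34 were converted back and 26 took the value of the probe nearest in signal. None was on a member probe.

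Intensities were normalized with neqc (limma 3.58.1, R 4.3.3, offset 16, quantiles over 30 arrays, log2). The 15151 probes detected (p under 0.05) on 3 or more arrays entered 1 limma fit of 10 condition means, with 20 residual and 3.38 prior degrees of freedom. Within a comparison, p-values over all tested probes were adjusted after Benjamini and Hochberg. Counts at an unadjusted p have no share of all tested probes beside them. A call needed an adjusted p under 0.05 and, except in the F-test, a 1.5-fold difference. Where a probe was detected on no array of a condition, a fold is a bound against the lowest signal of detected probes. A change is given where it was called or a condition compared had the probe detected on 3 of 3 arrays.

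Samples were grouped by their labels. The members and the gene lists were chosen with earlier results of these data known. All members are named, and from each role list every gene called in at least 2 of the 4 clones and the 2 genes with the largest mean change. The brightest tested probe stands for a listed gene. For each called member the 3 genes with the highest Pearson r are named. Alternatives were leaving the background uncorrected (with a floor of 1 on the signals), median scaling, an offset of 50, a 2-fold limit, no fold limit, no detection filter, a stricter one (p under 0.01 on each of the 3 arrays of some condition), a block for replicate number, only the arrays compared, the methods' t-test and leaving out each array. The F-test without Chek1_R was chosen after seeing the data. On simulated arrays of 15151 probes for Bub1b_R without against with Dox, 94 of 100 probes changed 2-fold and 100 of 100 changed 3-fold were called, with 2 false calls.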

Additional observations from a re-analysis of the deposited data

Results flagged for a closer look

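Effects of Dox withdrawal that differed between a clone and Control_R were flagged by the test of that difference. In Bub1b_R they were Axin2 (0.98, log2 change minus that in Control_R), Lef1 (1.10) and Sp5 (1.02). In the arrays labelled Chek1_R they were Axin2 (1.92), Lef1 (0.66), Sp5 (2.56) and Ccnd1 at ILMN_1221503 (0.59). The Lef1 value there has no interpretable size, since the probe was detected on 0 of 3 arrays in 3 of the 4 conditions that enter it. In Ppm1g_R they were Axin2 (0.73), Tcf7 at ILMN_2717975 (-0.71) and the 3 Ccnd1 probes (0.91, 0.94 and 0.77).

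Effects that differed among the 4 clones with a targeted gene were flagged by the F-test, whose F was 129.0 for Sp5, 73.9 for Axin2 and 11.8 for Lef1. For Ccnd1 it was 46.9, 79.7 and 12.7 at ILMN_2601471, ILMN_2669793 and ILMN_1221503.

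Groups of 3 arrays are too small for the search for single outlying arrays, and none was made.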

How the results depend on the processing

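Of 55 called member values, 0 changed sign under any alternative, and no detection filter and the replicate block changed 0 calls. A sign could change only where arrays were normalized in another way or left out. The fold limits, detection filters, replicate block and t-test reuse the same levels and so give the same differences. The replicate numbers do not pair the arrays (correlation of same-numbered deviations -0.08 to 0.13, over 0.1 in 1 of 15 pairs, own number best in 6 of 15), and with the replicate block the number of member probes called on withdrawal was 3, 3, 5, 1 and 0 in Bub1b_R, Chek1_R, Ppm1g_R, Ppp2r1b_R and Control_R. Beside these, 849, 1405, 663, 730 and 167 of all 15151 tested probes were called with the block. Calls of Lef1, Dkk1 and Tcf7, and values near 1.5-fold, depended on the settings. A 2-fold limit ended 31 calls, and no fold limit added 39. Over all fits with 1 array left out, 28 calls were lost and 9 gained. With an offset of 50, 12 calls were lost and 0 gained, and with median scaling 6 were lost and 8 gained. Without background correction 3 calls, all Lef1, were lost and 3 gained. The cause was not tested, except that an offset shrinks the changes of dim probes. Median scaling moved the median of all probes to -0.18 in both comparisons of Ppp2r1b_R with Control_R, and to 0.10 in that of Bub1b_R without Dox. Signal near background limits Lef1, Dkk1 and Nkd1.

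With an offset of 50, 2 member probes were called in Chek1_R relative to Control_R, 2 in Chek1_R against Control_R without Dox and 2 in Ppm1g_R against it with Dox. Of all 15151 tested probes, 860, 3011 and 3089 were called there. With a 2-fold limit, withdrawal gave 0 calls in Ppm1g_R and 0 in Ppp2r1b_R, and relative to Control_R 2 in Chek1_R and 0 in Ppm1g_R. Over all tested probes these comparisons had 87, 92, 341 and 122 calls. Against Control_R that limit gave 2, 3 and 2 without Dox in Chek1_R, Ppm1g_R and Ppp2r1b_R, beside 1500, 1941 and 2006 of all tested probes. It gave 1 each with Dox in Bub1b_R, Chek1_R and Ppp2r1b_R, beside 503, 631 and 1485. With no fold limit, withdrawal gave 6, 6, 8, 4 and 1 of the 10 member probes in the order above. Of all 15151 tested probes, 3700, 4689, 3541, 3839 and 1144 were called there. Relative to Control_R it gave 6 in Bub1b_R and 1 in Ppp2r1b_R, beside 1847 and 1254 of all tested probes. Against Control_R it gave 7 in Bub1b_R and 7 in Ppp2r1b_R without Dox, beside 8013 and 9910 of all tested probes. With Dox it gave 7, 8 and 8 in Chek1_R, Ppm1g_R and Ppp2r1b_R, beside 7513, 9346 and 9292. Leaving out each array gave 2 to 4 calls for Chek1_R and 0 to 1 for Ppp2r1b_R relative to Control_R, the latter without Ppp2r1b_R with Dox replicate 1. Fold limits and the t-test do not apply to the F-test, which passed for 6 to 7 probes on leaving out an array. The share of all tested probes was not taken for fits with an array left out.

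Values that changed sign were not called. Without background correction, Lef1 in Ppm1g_R relative to Control_R was -0.084. With median scaling, Tcf7 was 0.030 and 0.018 in Chek1_R on withdrawal, and Ccnd1 at ILMN_1221503 was 0.0082 in Ppp2r1b_R and 0.033 in Control_R on withdrawal, and 0.11 in Chek1_R without Dox and 0.14 in Ppm1g_R with Dox against Control_R. On leaving out each array, Tcf7 at ILMN_2717975 ranged over -0.23 to 0.045, -0.11 to 0.026, -0.10 to 0.23 and -0.0038 to 0.26 on withdrawal in Bub1b_R, Chek1_R, Ppp2r1b_R and Control_R, and -0.26 to 0.10 in Ppp2r1b_R relative to Control_R. At ILMN_1242308 it ranged over -0.034 to 0.15 in Bub1b_R on withdrawal and -0.15 to 0.036 relative to Control_R. Ccnd1 at ILMN_1221503 ranged over -0.091 to 0.054 in Ppp2r1b_R and -0.047 to 0.048 in Control_R on withdrawal, -0.080 to 0.065 in Ppp2r1b_R relative to Control_R, and -0.15 to 0.017 in Ppm1g_R with Dox and -0.084 to 0.0017 in Chek1_R without Dox against Control_R. In Bub1b_R with Dox against Control_R, the other Ccnd1 probes ranged over -0.018 to 0.074 and -0.024 to 0.026.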
